A study of Mus musculus with 64 samples.

Results

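The Slc13 family comprises sodium-coupled transporters that carry sulfate or the di- and tricarboxylates of intermediary metabolism into cells. Its 5 mouse genes, Slc13a1 to Slc13a5, were taken by name from the 53008 gene names of a liver RNA sequencing table. The family was chosen by the opposite HFD-minus-chow differences of Slc13a1 and Slc13a2 in these libraries (selected on the diet values), so the diet differences of its members are given below as values without a test. For Slc13a1 and Slc13a2 the genotype comparisons use the same libraries and are also given without a test. Livers came from 4 groups with 4 libraries each, collected when 16 weeks on a diet had ended. The groups were wild-type (WT) mice with the mouse Mgat2 gene on chow, WT mice on a high-fat diet (HFD), humanized HuMgat2 mice, which express human MOGAT2, on chow, and HuMgat2 mice on HFD. The labels give neither sex nor age, nor the cells in which human MOGAT2 is expressed, nor whether each library is a separate mouse. The p-values below therefore measure the spread between these libraries.

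Slc13a1 and Slc13a4 are the sulfate carriers of the family. Slc13a1 is best known from the kidney proximal tubule and the intestine, where it retrieves sulfate. Slc13a2 and Slc13a3 carry succinate and other dicarboxylates, and Slc13a5 is the citrate carrier best known from the liver, where imported citrate can feed fatty acid synthesis. Sulfate taken up by a cell is turned into the sulfate donor PAPS by Papss1 and Papss2 before it can be used for sulfation.

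Levels are raw read-pair counts turned into counts per M (CPM) after trimmed-mean (TMM) scaling, with mean ± SD and n = 4 per group. Total counts were 12.4 to 25.8 M per library. WT HFD library 4 stood apart from the rest. It had 12.4 M counts against 19.4 to 25.8 M in the others, and albumin took 0.85% of its counts against 3.26% to 6.02%. Its acute phase transcript Saa1 stood at 7574 CPM against 5.55 to 123.4 CPM elsewhere. Values that rest on it are given with and without it. The 8 hepatocyte markers summed to 67678 to 100027 CPM in the other 15 libraries and to 39418 CPM in library 4. In WT mice these sums were 83534.5 to 97958 CPM on chow and at most 73986 CPM on HFD, without overlap. In HuMgat2 mice they overlapped between diets (74594 to 100027 CPM on chow, 67678 to 79529 on HFD). In bulk liver, fewer cells of a type and less RNA per cell cannot be told apart.

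All 5 genes passed the filter on low counts (minimum count 10) and were among the 17318 genes tested. Slc13a1 reached that count only in the WT HFD libraries and HuMgat2 HFD library 12, and Slc13a2 only on chow, so each passed through the groups where it was high. Their positions are given on GRCm39 and all lie on the minus strand. Slc13a1 (ENSMUSG00000029700) spans 24088282 to 24168091 on chromosome 6, and Slc13a4 (ENSMUSG00000029843) lies on the same chromosome at 35244892 to 35285066. Slc13a2 (ENSMUSG00000001095) spans 78287913 to 78313043 on chromosome 11, and Slc13a5 (ENSMUSG00000020805) lies at 72132815 to 72158048 of that chromosome. Slc13a3 (ENSMUSG00000018459) is at 165246948 to 165315150 on chromosome 2.

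RefSeq promoter windows were matched by symbol for 4 of the 5 genes. Those of Slc13a2 and Slc13a5 are shown, because Slc13a2 had the largest decrease with HFD among the members and Slc13a5 was the member whose diet difference depended on genotype. Each run is the 250 bases before a transcript start, read 5′ to 3′ on the minus strand of GRCm38.p6, an older build than that of the counts. Capitals mark a TATA box match. The windows are chr11:78422235-78422484 for Slc13a2, chr11:72266605-72266854 for the downstream start of Slc13a5 and chr11:72267162-72267411 for its upstream start.
Slc13a2: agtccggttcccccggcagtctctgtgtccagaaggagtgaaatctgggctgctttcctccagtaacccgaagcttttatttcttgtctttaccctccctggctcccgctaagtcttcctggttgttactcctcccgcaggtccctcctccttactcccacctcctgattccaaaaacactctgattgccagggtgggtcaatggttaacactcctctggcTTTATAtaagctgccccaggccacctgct
Slc13a5, downstream start: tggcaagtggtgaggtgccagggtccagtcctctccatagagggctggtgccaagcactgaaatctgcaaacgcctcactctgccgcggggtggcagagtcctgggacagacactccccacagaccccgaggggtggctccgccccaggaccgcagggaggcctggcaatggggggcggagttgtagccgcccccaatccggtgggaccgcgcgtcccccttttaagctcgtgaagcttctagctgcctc
Slc13a5, upstream start: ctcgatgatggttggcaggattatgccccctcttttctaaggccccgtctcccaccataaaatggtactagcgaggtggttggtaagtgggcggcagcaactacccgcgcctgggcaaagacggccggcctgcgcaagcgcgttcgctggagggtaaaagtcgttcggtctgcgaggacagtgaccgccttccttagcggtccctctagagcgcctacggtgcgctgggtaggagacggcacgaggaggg
The windows were searched on both strands for 7 short motifs. These were the E box CACGTG, the D box TTATGNAA, the AHR core GCGTG, the STAT site TTCNNNGAA, the nuclear receptor hexamer AGGTCA, the TATA box TATAAA and the CRE TGACGTCA. A TATAAA match on the opposite strand began 29 bases before the start of Slc13a2, and 12.4% of the 32851 windows of this length hold that motif. The E box was found 154 bases before the start of Slc13a3, and 6.02% of windows hold it. The windows of Slc13a5 and Slc13a4 held none of the 7 motifs. The shares of all windows with the other motifs were 3.07% for the D box, 28.2% for the AHR core, 7.02% for the STAT site, 14.0% for the hexamer and 1.55% for the CRE. Guanine and cytosine made up 53.6% of the Slc13a2 window, 65.6% and 61.6% of the Slc13a5 windows, and a median of 52.4% of all windows.

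Per kilobase of exon, Slc13a3 was the most abundant member in every group, and the order below it changed with diet. In WT on chow, Slc13a3 stood at 2.06 ± 0.177 CPM per kb, Slc13a2 at 1.15 ± 0.167, Slc13a4 at 0.152 ± 0.0778, Slc13a5 at 0.104 ± 0.062 and Slc13a1 at 0.0106 ± 0.0101. The levels of Slc13a4 and Slc13a5 lay within their spread. In WT on HFD the per-kilobase order was Slc13a3 at 9.68 ± 10.3, Slc13a5 at 2.40 ± 3.64, Slc13a1 at 0.497 ± 0.257, Slc13a4 at 0.264 ± 0.0996 and Slc13a2 at 0.0755 ± 0.0314. Without library 4 the first 3 of these were 4.55 ± 0.862, 0.583 ± 0.264 and 0.375 ± 0.1 CPM per kb, and the last 2 of those 3 lay within their spread. Slc13a2 thus went from the second place to the last. In HuMgat2 mice Slc13a2 took 26.1% of the summed per-kilobase level of the family on chow and 2.16% on HFD, while Slc13a3 took 65.4% and 89.2%.

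**Figure D1:**
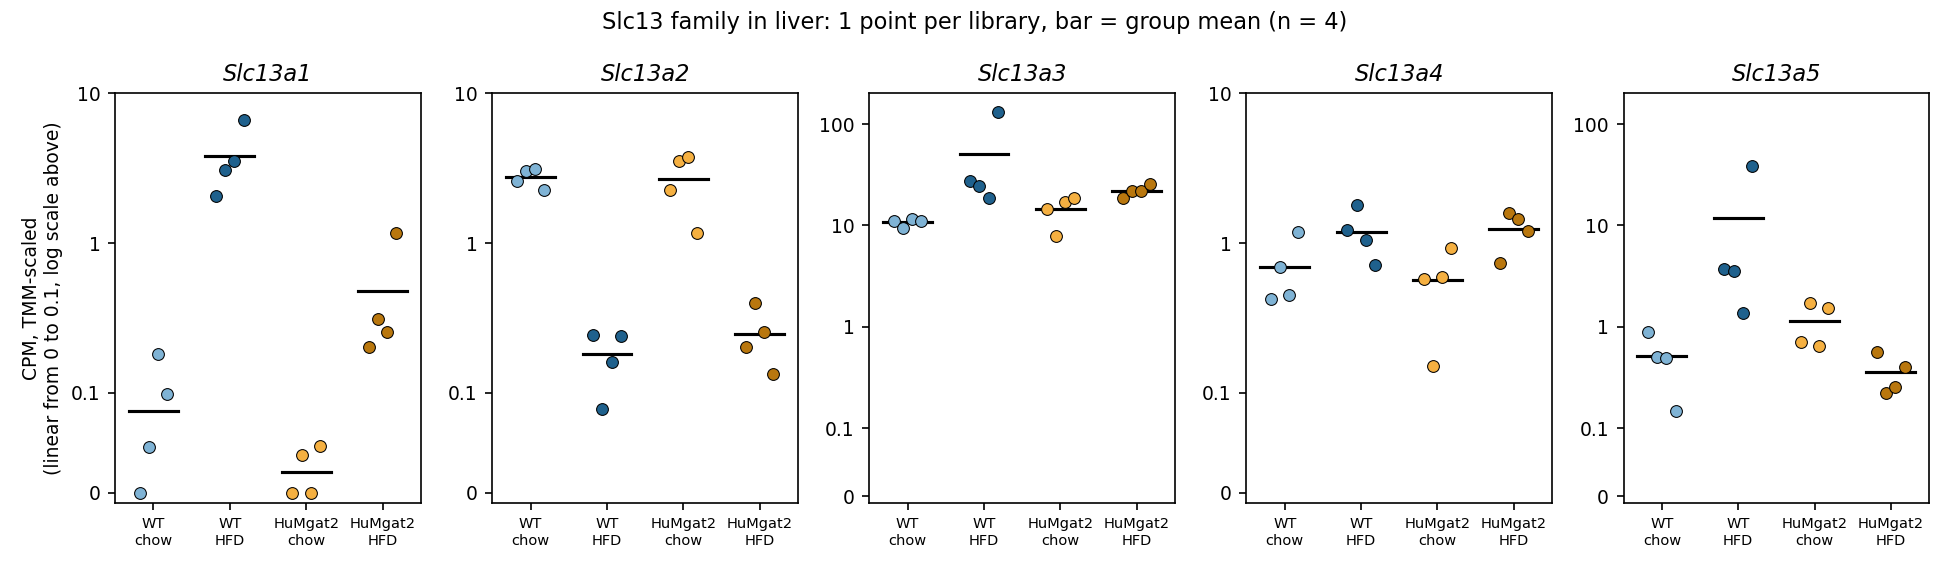
CPM of each Slc13 gene in each of the 16 libraries (points) with the group mean (bar, n = 4). The vertical axis is linear from 0 to 0.1 CPM and logarithmic above, and the 2 genes with the widest range have a longer axis. Slc13a1 is between 2.05 and 6.67 CPM in WT on HFD, Slc13a2 is low in both HFD groups, and WT HFD library 4 is the top point of Slc13a3 (130.8 CPM) and Slc13a5 (38.8 CPM).

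Slc13a1, the sulfate transporter, was near the limit of detection on chow and was present on HFD, more so in WT than in HuMgat2 mice. Its raw counts were 0, 1, 4 and 2 in the WT chow libraries and 0, 1, 0 and 1 in the HuMgat2 chow libraries. A count of 0 allows up to 0.142 to 0.194 CPM in those libraries (3 counts, counting error only). On HFD the WT libraries held 42, 74, 88 and 84 counts, which is 2.05, 3.09, 3.57 and 6.67 CPM. The HuMgat2 HFD libraries held 5, 7, 6 and 26 counts, which is 0.203, 0.310, 0.255 and 1.17 CPM. All HFD libraries lay above all chow libraries of their genotype, and all WT HFD libraries lay above all HuMgat2 HFD libraries.

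The group means of Slc13a1 were 0.0816 ± 0.0778 CPM on chow and 3.84 ± 1.99 CPM on HFD in WT, a log2 difference of 5.43 ± 0.65 (SE). Without library 4 the WT HFD mean was 2.90 ± 0.774 CPM. In HuMgat2 mice the means were 0.0212 ± 0.0247 and 0.483 ± 0.457 CPM. The 2 counts on chow against 44 on HFD give a ratio of 19.4 after scaling (95% interval of counting error 5.05 to 165). HuMgat2 HFD library 12 held 26 of the 44 counts, and without it the fitted log2 difference was 3.12 instead of 4.00.

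Between genotypes on HFD, the Slc13a1 level of HuMgat2 mice was 7.83-fold below that of WT mice (log2 -2.97 ± 0.50 SE). This value describes the same HFD libraries as the diet differences. The log2 difference was -2.59 without WT HFD library 4 and -3.85 without HuMgat2 HFD library 12. On chow the 7 and 2 counts of Slc13a1 were too few to separate the genotypes (log2 -1.55 ± 1.32 SE). The difference between its 2 diet effects had a wide error for the same reason (log2 -1.42 ± 2.11 SE).

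Slc13a4, the second sulfate carrier, was low throughout. It ranged from 0.425 to 1.19 CPM in WT on chow (median 0.574), 0.715 to 1.79 in WT on HFD (median 1.14), 0.152 to 0.936 in HuMgat2 on chow (median 0.586) and 0.733 to 1.59 in HuMgat2 on HFD (median 1.33). The diet groups overlapped in both genotypes. HFD minus chow was log2 0.83 ± 0.43 (SE) in WT and 1.16 ± 0.44 in HuMgat2 mice. Neither genotype comparison was called (adjusted p = 0.87 on chow and 0.977 on HFD, edgeR quasi-likelihood test with Benjamini-Hochberg adjustment), nor was the difference between diet effects (0.33 ± 0.62 SE, edgeR adjusted p = 0.828).

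Slc13a2, the renal and intestinal dicarboxylate carrier, was expressed on chow and nearly undetected on HFD in both genotypes. The WT chow libraries stood at 2.60, 3.05, 3.13 and 2.27 CPM and the WT HFD libraries at 0.244, 0.0835, 0.162 and 0.238 CPM. The HuMgat2 chow libraries stood at 2.26, 3.53, 3.76 and 1.17 CPM and the HuMgat2 HFD libraries at 0.203, 0.398, 0.255 and 0.134 CPM. No HFD library reached the lowest chow library of its genotype.

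The group means of Slc13a2 were 2.76 ± 0.402 on chow and 0.182 ± 0.0756 CPM on HFD in WT, and 2.68 ± 1.20 and 0.248 ± 0.112 CPM in HuMgat2 mice. HFD minus chow was log2 -3.95 ± 0.42 (SE) in WT and -3.41 ± 0.39 in HuMgat2 mice, where the level was 10.6-fold lower on HFD. The difference between these 2 values was 0.54 ± 0.61 (SE). HuMgat2 minus WT was log2 -0.04 ± 0.30 (SE) on chow and 0.50 ± 0.54 on HFD, and the libraries of the genotypes overlapped on both diets. The HFD groups held 14 and 23 counts in all, so the value there rests on few reads.

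Slc13a2 shares 632 exon bases, 26.2% of its exon length, with the antisense gene Slc13a2os on the plus strand (78285311 to 78296483). The counting command in the file header sets no strand option and no multiple-overlap option. By default, read pairs that match both genes equally are then counted for neither. Slc13a2os had 4, 7, 6 and 6 counts in WT on chow and 1, 1, 0 and 0 in WT on HFD. The HuMgat2 libraries had 3, 6, 10 and 5 counts on chow and 0, 0, 1 and 0 on HFD. It was lower on HFD in both genotypes with no overlap between libraries, but did not pass the filter and was not tested. With its counts added to those of Slc13a2, an alternative chosen after the data were seen, the diet differences were log2 -3.90 in WT and -3.50 in HuMgat2 mice. That sum does not restore read pairs left out where the genes overlap.

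Slc13a3, the high-affinity dicarboxylate carrier, was the member with the most reads. It stood at 11.0, 9.39, 11.5 and 11.0 CPM in WT on chow and at 27.7, 24.6, 18.8 and 130.8 CPM in WT on HFD. It stood at 14.5, 7.82, 17.1 and 18.7 CPM in HuMgat2 on chow and at 18.6, 22.0, 21.9 and 25.9 CPM in HuMgat2 on HFD. In WT mice all HFD libraries lay above all chow libraries, while the HuMgat2 groups met at 18.6 and 18.7 CPM.

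WT HFD library 4 set the size of the Slc13a3 difference. The WT means were 10.7 ± 0.921 CPM on chow and 50.5 ± 53.7 CPM on HFD, and the HFD mean was 23.7 ± 4.49 CPM without that library. HFD minus chow was log2 2.22 ± 0.48 (SE) in WT and 1.14 without library 4, and 0.61 ± 0.46 in HuMgat2 mice. On HFD the genotypes differed by log2 -1.18 ± 0.46 (SE, edgeR adjusted p = 0.0918). Adjusted p was 0.0364 without WT HFD library 3, and without library 4 the difference was -0.10 with adjusted p = 0.803. The genotypes were not separated on chow (0.43 ± 0.47 SE, edgeR adjusted p = 0.804), nor were their diet effects (-1.61 ± 0.66 SE, edgeR adjusted p = 0.195, and -0.53 without library 4).

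Slc13a5, the citrate carrier, was the member whose diet difference ran in opposite directions in the 2 genotypes. Its WT chow libraries stood at 0.898, 0.509, 0.499 and 0.148 CPM and its WT HFD libraries at 3.71, 3.55, 1.38 and 38.8 CPM. The HuMgat2 chow libraries stood at 0.710, 1.71, 0.644 and 1.55 CPM and the HuMgat2 HFD libraries at 0.570, 0.221, 0.255 and 0.403 CPM. In CPM, every WT HFD library lay above every WT chow library, and every HuMgat2 HFD library lay below every HuMgat2 chow library. The HuMgat2 libraries held 11, 45, 12 and 33 counts on chow and 14, 5, 6 and 9 counts on HFD. These raw counts overlapped, and the nearest CPM values of the 2 diets, 0.644 and 0.570, rest on 12 and 14 counts.

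The group means of Slc13a5 were 0.513 ± 0.306 CPM on chow and 11.9 ± 18.0 CPM on HFD in WT, with a HFD mean of 2.88 ± 1.30 CPM without library 4. They were 1.15 ± 0.553 and 0.362 ± 0.159 CPM in HuMgat2 mice. HFD minus chow was log2 4.46 ± 0.90 (SE) in WT, 2.46 without library 4, and -1.69 ± 1.01 in HuMgat2 mice. The difference between the 2 diet effects was log2 -6.15 ± 1.33 (SE, edgeR adjusted p = 0.0137), and without library 4 it was -4.15 (edgeR adjusted p = 0.00117). This test is built from the diet differences of the libraries by whose Slc13a1 and Slc13a2 values the family was chosen. It was called in all 21 alternatives, with adjusted p from 6.38e-05 to 0.0333. Of the 3 members with a test, Slc13a5 was called by the interaction test, and 4.87% of all genes tested were called.

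On HFD, the Slc13a5 level of HuMgat2 mice was 31.1-fold below that of WT mice (log2 -4.96 ± 0.93 SE, edgeR adjusted p = 0.00221). Without library 4 the log2 difference was -2.95 (edgeR adjusted p = 0.000514), and it was called in all 22 alternatives. Slc13a3 and Slc13a4 were not called in this comparison, in which 14.8% of all genes were called. All Slc13a1 and Slc13a5 libraries of HuMgat2 mice on HFD lay below those of WT mice, and 21.2% of all genes did not overlap. On chow its levels overlapped between the genotypes (1.19 ± 0.97 SE, edgeR adjusted p = 0.713). None of Slc13a3, Slc13a4 and Slc13a5 was called by edgeR between genotypes on chow, and 0 had an unadjusted p below 0.05 or were called by DESeq2. In that comparison 0.508% of all genes were called and 6.62% did not overlap. Exons of Slc13a5 share 473 bases (9.57%) with the opposite-strand gene 1700051A21Rik, which had at most 2 counts in any library. Read pairs that match both of these genes equally are likewise in neither count.

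**Figure D2:**
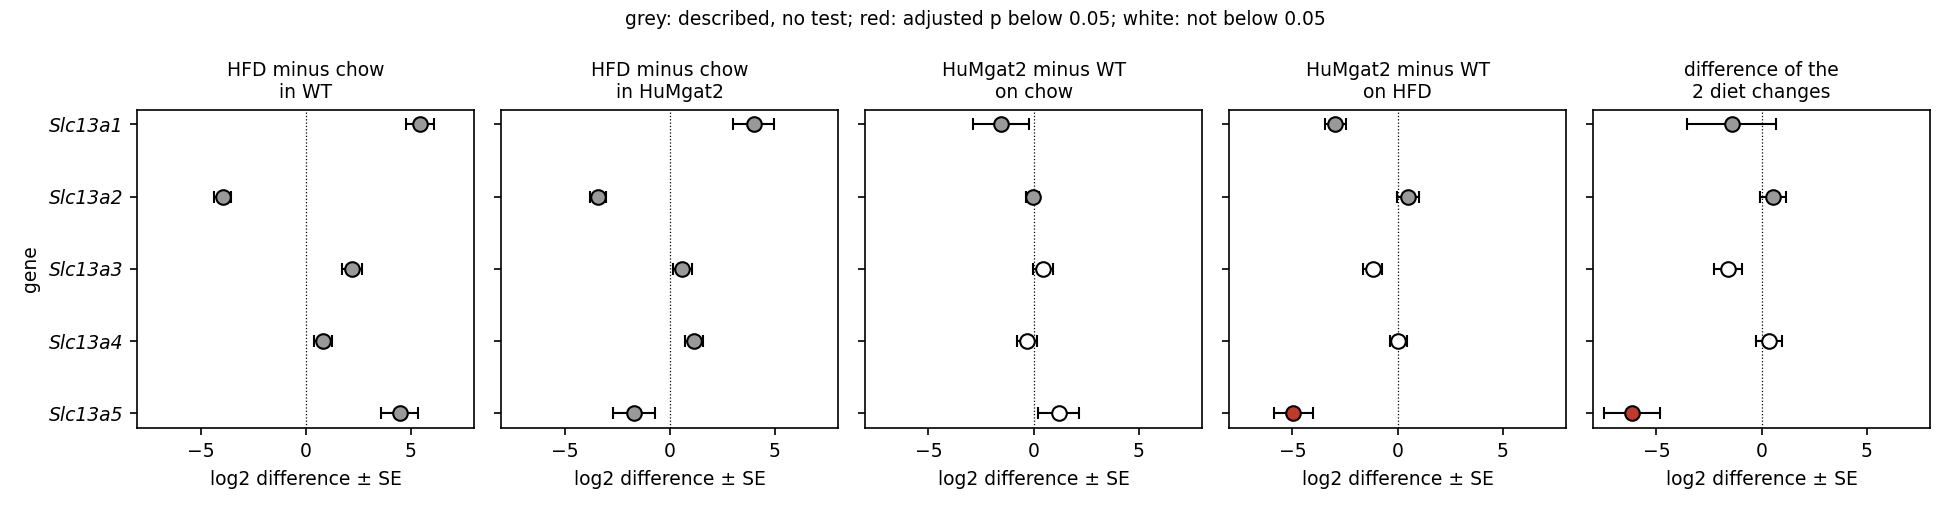
Fitted log2 differences of the 5 members with their standard errors in 5 comparisons. Grey points are values given without a test, red points have an edgeR adjusted p below 0.05 and white points do not. Slc13a5 is the red point between genotypes on HFD (-4.96) and for the difference of diet effects (-6.15).

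Across diets, 4 of the 5 members did not overlap between HFD and chow in WT mice, namely Slc13a1, Slc13a2, Slc13a3 and Slc13a5. Among all genes 18.2% did not overlap. In HuMgat2 mice 3 of 5 did not overlap, namely Slc13a1, Slc13a2 and Slc13a5, against 21.0% of all genes. These counts describe the values by which the family was picked. The median log2 difference of the 5 members was 2.22 in WT and 0.61 in HuMgat2 mice, and that of all genes tested was 0.03 and -0.01. Both member medians are the values of Slc13a3, whose WT difference was 1.14 without WT HFD library 4.

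Over the 16 libraries the log2 levels of Slc13a1 and Slc13a2 had a Pearson correlation of -0.822, and of -0.221 once group means were removed. Slc13a3 and Slc13a5 had a correlation of 0.693, and of 0.199 in the 15 libraries without library 4. These points share libraries and groups, and the values are descriptions.

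The genes most like each member were found by the correlation of log2 CPM over the 16 libraries among 14117 genes with a mean of at least 1 CPM. The genes most like Slc13a3 were those of the acute phase response. They were Serpina3n (0.963), Saa1 (0.96) and Lcn2 (0.955), and without library 4 the same correlations were 0.888, 0.89 and 0.917. With group means removed over all 16 libraries, library 4 included, they were 0.934, 0.94 and 0.94. Library 4 was far above the rest of its group in Slc13a3 and Saa1, and correlations with group means removed were not computed without it. Saa1 itself averaged 6.62 ± 1.19 CPM in WT on chow and 17.6 ± 5.61 in HuMgat2 on chow. Its HFD levels ran from 26.9 to 7574 CPM in WT and from 18.5 to 45.1 CPM in HuMgat2 mice. The part of the acute phase genes in the Slc13a3 values was not tested.

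**Figure D3:**
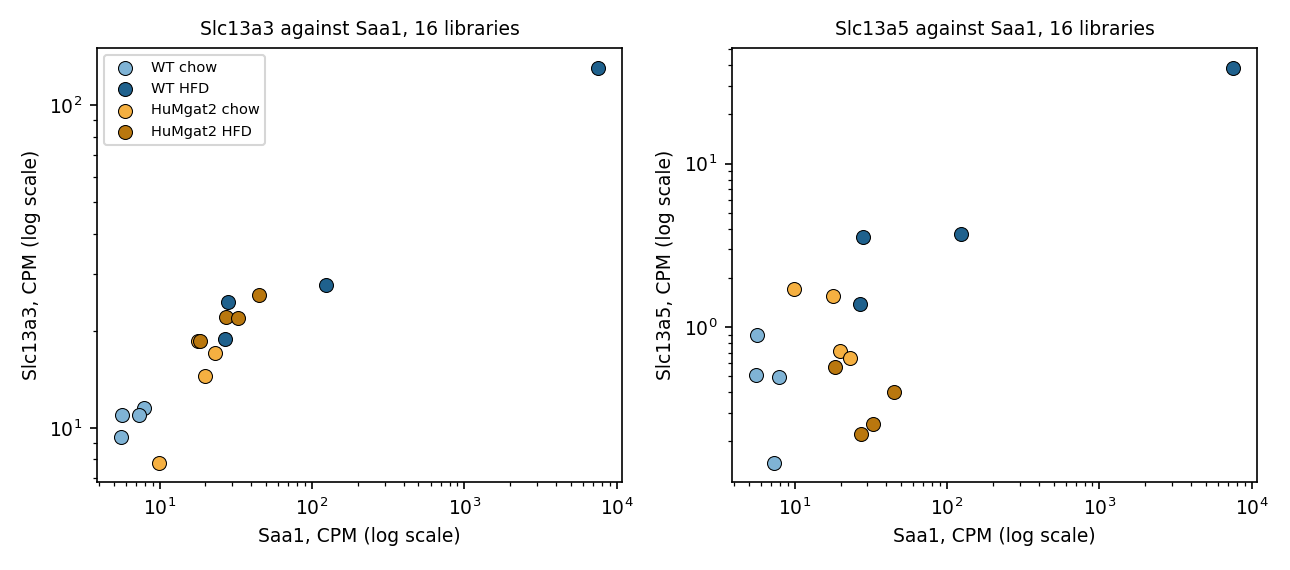
CPM of Slc13a3 (left) and Slc13a5 (right) against CPM of Saa1 in the 16 libraries, both axes logarithmic, coloured by group. Slc13a3 and Saa1 are both highest in WT HFD library 4 (130.8 and 7574 CPM), and Slc13a5 is below 0.6 CPM in the HuMgat2 HFD libraries, whose Saa1 is 18.5 to 45.1 CPM.

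The genes most like Slc13a5 were H2-T22 (0.918), Gfra1 (0.917) and Nuak2 (0.913), at 0.788, 0.868 and 0.817 without library 4. Gfra1, a neurotrophic factor receptor subunit, averaged 216.8 ± 63.5 CPM in WT on HFD and 83.4 ± 3.34 CPM in HuMgat2 on HFD, against 114.2 ± 8.88 and 131.6 ± 12.9 CPM on chow. For Slc13a1 they were Fbf1 (0.94), Tmem86a (0.94) and Ankrd12 (0.939), and the most negative was the clock gene Clock (-0.956). With group means removed these were 0.565, 0.295, 0.591 and -0.697. With a prior count of 0.5 in place of 2, Alas1 (0.933) entered the 3 most similar genes in place of Fbf1 (0.907). Clock averaged 106.2 ± 2.57 CPM in WT on chow, 49.9 ± 4.31 in WT on HFD, 106.5 ± 9.88 in HuMgat2 on chow and 69.5 ± 9.44 in HuMgat2 on HFD. For Slc13a2 the most similar were Srgap3 (0.947), Grm8 (0.945) and the carboxylesterase Ces1b (0.922), and the most negative was Themis (-0.934), a gene of T cell development. Once group means were removed, the correlation with Slc13a2 was 0.386 for Srgap3 and -0.129 for Ces1b.

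The other genes of sulfate uptake and activation include the Slc26 sulfate exchangers and the PAPS synthases. Of 10 such genes tested, 0 were called with diet in WT mice by edgeR or DESeq2, 2 had an unadjusted p below 0.05, and 15.1% of all genes tested were called. In HuMgat2 mice 3 were called, against 14.0% of all genes. Papss2, a PAPS synthase, fell from 208.1 ± 31.9 to 109.8 ± 9.88 CPM (log2 -0.92 ± 0.12 SE, edgeR adjusted p = 8.77e-05). Papss1, the second PAPS synthase, rose from 3.84 ± 0.53 to 6.10 ± 0.184 CPM (0.66 ± 0.15 SE, edgeR adjusted p = 0.00715), and the sulfate transporter Slc26a2 rose by a log2 value of 0.66 ± 0.11 SE.

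The PAPS synthases also differed between genotypes. On chow, Papss1 was lower in HuMgat2 than in WT mice, at 3.84 ± 0.53 against 10.1 ± 1.43 CPM (log2 -1.39 ± 0.15 SE, edgeR adjusted p = 6.94e-05). Papss2 was higher on chow (0.68 ± 0.12 SE, edgeR adjusted p = 0.00976), a call lost without WT chow library 5. On HFD both were lower in HuMgat2 mice, Papss1 by a log2 difference of -0.58 and Papss2 of -0.51. They were the 2 of 10 called on HFD, against 14.8% of all genes, and 5 were called by DESeq2 or without WT HFD library 1. Both were also the 2 of 10 called on chow, where 0.508% of all genes were called. They were the 2 of 10 called by the interaction test too, against 4.87% of all genes. The diet effect of Papss2 differed between genotypes (-1.19 ± 0.17 SE, edgeR adjusted p = 0.000703) in all 21 alternatives. That of Papss1 (0.82 ± 0.21 SE, edgeR adjusted p = 0.0311) was called in 11 of 21, and in 6 of the 16 fits that each left out a library.

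The next 10 genes make cysteine (Cbs and Cth) or take part in the oxidation of its sulfur toward sulfate. With HFD in WT mice 3 of them fell and 2 rose, and 15.1% of all genes were called in either direction. Ethe1, the persulfide dioxygenase, fell from 42.0 ± 4.16 to 18.8 ± 6.30 CPM, and Cdo1, cysteine dioxygenase, from 1208 ± 99.9 to 776.5 ± 98.2 CPM. Cth, which makes cysteine from cystathionine, fell by 0.59 on the log2 scale, and Mpst and Got1 rose by 0.43 and 0.99. The Got1 call was lost without WT HFD library 1, WT chow library 5 or WT chow library 7. In HuMgat2 mice 3 of 10 fell, against 14.0% of all genes called, namely Cth (log2 -1.48 ± 0.16 SE), Cbs (-0.68 ± 0.17) and Ethe1 (-0.65 ± 0.18). Without HuMgat2 HFD library 10 only Cth stayed called, Ethe1 was also lost without HuMgat2 HFD library 12 or HuMgat2 chow library 14, and 5 genes were called without WT HFD library 4. Between genotypes, Cth was higher in HuMgat2 mice on chow (0.81 ± 0.16 SE) and Ethe1 on HFD (0.58 ± 0.18 SE), each called in 16 of 22 alternatives. Tst, a thiosulfate sulfurtransferase, was lower on HFD (-0.37 ± 0.12 SE) and was called in 7 of 22.

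The next list held 13 genes of citrate handling and fatty acid synthesis. Me1, Acss2, Acaca, Acacb and Fasn are on it for fatty acid synthesis and its supply, not for citrate itself. Of the 13, 6 were higher, 0 lower and 7 not called in HuMgat2 against WT mice on HFD, where 14.8% of all genes were called. The median log2 was 0.49 for the list and -0.04 for all genes tested. Acly, which splits cytosolic citrate into acetyl-CoA, averaged 270 ± 131.9 CPM in WT and 778.4 ± 266.7 CPM in HuMgat2 (log2 1.53 ± 0.30 SE, edgeR adjusted p = 0.00343). Malic enzyme Me1 averaged 191.9 ± 124.9 and 652.7 ± 92.1 CPM (1.76 ± 0.37 SE, edgeR adjusted p = 0.0051), and citrate synthase Cs differed by 0.62 ± 0.14. These 3 were called in all 22 alternatives. Idh1 (0.42), Acss2 (0.84) and the mitochondrial citrate exporter Slc25a1 (0.49) were also called, and the last 2 lost their call without WT HFD library 1, 2 or 4 or HuMgat2 HFD library 9 or 10, and Slc25a1 without HuMgat2 HFD library 12 too. Idh1 and Acss2 were not called when only the HFD groups were fitted.

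With diet, 7 of these 13 genes of citrate handling and fatty acid synthesis rose in HuMgat2 mice and 0 fell, against 14.0% of all genes called. The fatty acid synthesis enzymes Acaca (log2 1.53 ± 0.23 SE), Fasn (1.69 ± 0.32) and Acacb (0.94 ± 0.21) led by adjusted p. The count was 3 without HuMgat2 HFD library 12. In WT mice, where 15.1% of all genes were called, 1 of 13 rose, Acacb (0.88 ± 0.21 SE), and 1 fell, Acss2 (-0.77 ± 0.24), and neither was called when only the WT groups were fitted. The Acss2 call was lost without any 1 of WT HFD libraries 1, 2 and 4 and WT chow libraries 5, 6 and 8. On chow 0 of 13 differed between genotypes by edgeR or DESeq2, and 0 had an unadjusted p below 0.05. The diet effects differed for Me1 alone (2.12 ± 0.52 SE, edgeR adjusted p = 0.0257), a call lost without WT HFD library 2, WT chow library 8, HuMgat2 HFD library 10 or HuMgat2 chow library 15. DESeq2 called 3 of the 13.

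**Figure D4:**
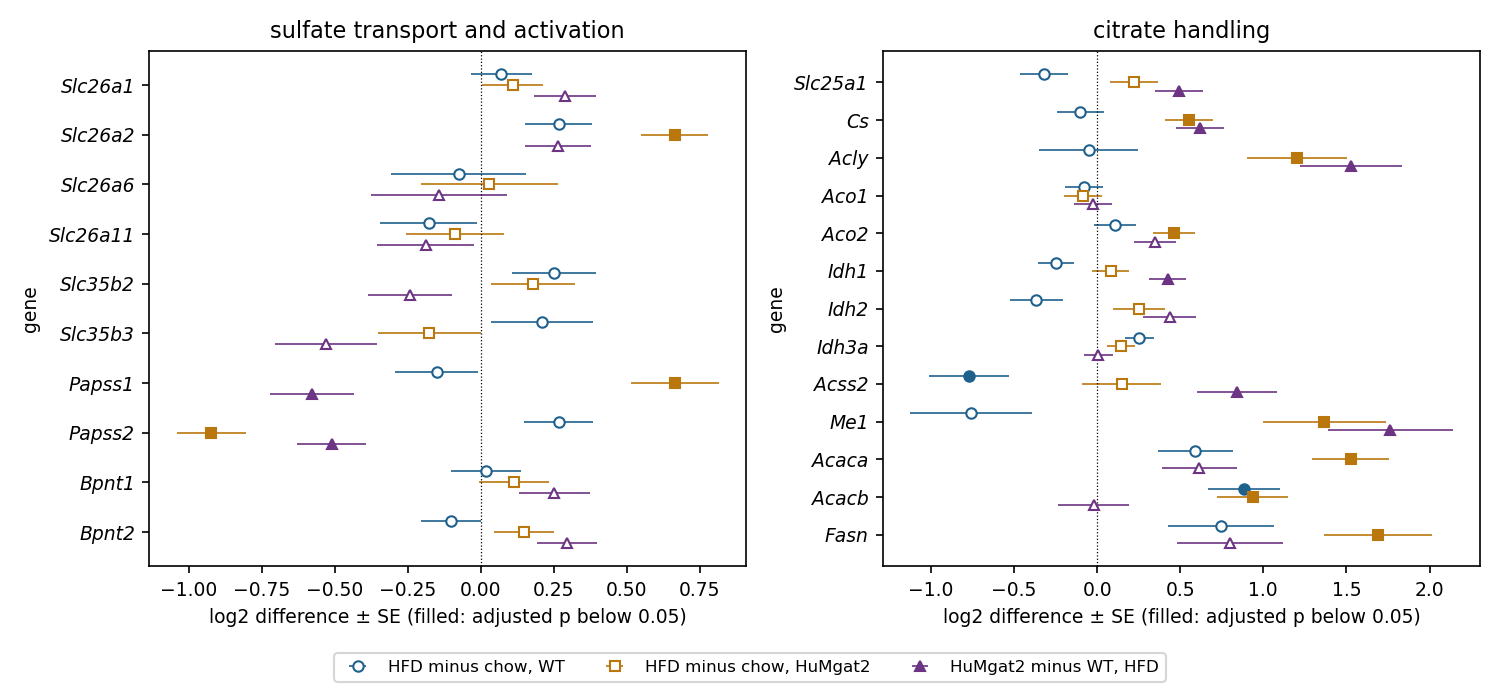
Log2 differences with standard errors for 10 genes of sulfate transport and activation (left) and 13 genes of citrate handling and fatty acid synthesis (right). Circles show diet in WT, squares diet in HuMgat2 and triangles the genotypes on HFD. Filled symbols have an edgeR adjusted p below 0.05. Papss2 falls with HFD in HuMgat2 mice (-0.92), and Acly (1.53) and Me1 (1.76) are higher in HuMgat2 than in WT mice on HFD.

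The next list held genes that handle succinate and other dicarboxylates, the substrates of Slc13a2 and Slc13a3. Of 17 tested, 0 were called with diet in WT mice by edgeR, against 15.1% of all genes. DESeq2 called 1, and 1 had an unadjusted p below 0.05. In HuMgat2 mice 2 rose, the mitochondrial dicarboxylate carrier Slc25a10 (log2 0.87 ± 0.21 SE, edgeR adjusted p = 0.00922) and the succinyl-CoA ligase subunit Suclg2 (0.43 ± 0.13 SE, edgeR adjusted p = 0.0343). The Suclg2 call was lost in 6 of the 16 fits that left out a library, those without HuMgat2 HFD library 10, 11 or 12 or HuMgat2 chow library 14, 15 or 16. Between genotypes on HFD 3 were higher in HuMgat2 mice, Mdh2 (0.43), Slc25a10 (0.72) and Suclg2 (0.44). Both counts are near the share of all genes called, 14.0% with diet in HuMgat2 mice and 14.8% between genotypes on HFD. The count on HFD was 1 without HuMgat2 HFD library 11 or 12, and 0 when only the HFD groups were fitted.

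Among 11 tested regulators and sensors linked to these transporters, 1 rose and 2 fell with HFD in WT mice, and 2 fell in HuMgat2 mice. The shares of all genes called were 15.1% and 14.0%. The dimerization partner Arnt rose with HFD in WT mice (log2 0.54 ± 0.08 SE) and the thyroid hormone receptor Thra fell (-0.60 ± 0.13). Between genotypes on HFD, Arnt was lower in HuMgat2 mice (-0.48 ± 0.08) and Thra higher (0.69 ± 0.13), each called in 22 of 22 alternatives. Their diet effects differed between genotypes (Arnt -0.49, edgeR adjusted p = 0.0146, and Thra 0.77, edgeR adjusted p = 0.0216). Hnf4a, a master regulator of hepatocyte genes, fell in WT (-0.54 ± 0.14) and in HuMgat2 mice (-0.48 ± 0.14). Creb1 also fell in HuMgat2 mice (-0.38 ± 0.09). The WT call of Hnf4a was lost without WT HFD library 3 or WT chow library 7, and when only the WT groups were fitted. Its HuMgat2 call was lost without HuMgat2 HFD library 10, 11 or 12 or HuMgat2 chow library 14 or 16, and with no filter.

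Since Slc13a1 and Slc13a2 are best known from kidney and intestine, markers of those tissues were read in the same libraries. The 12 kidney tubule markers summed to a median of 2.24 CPM (range 1.29 to 4.40) in WT chow libraries and 1.93 (0.794 to 2.39) in WT HFD libraries. In HuMgat2 mice the medians were 3.42 (2.58 to 3.65) with chow and 1.68 (1.53 to 2.79) with HFD. The medians were higher on chow, as were the Slc13a2 levels, and the part of kidney RNA in the Slc13 values was not tested. Lrp2 had 7 to 79 counts per library (up to 3.05 CPM), Slc12a3 had 1 to 18 and Slc5a2 had 0 to 11. Kap was at 0 in all 16 libraries, and Umod, Slc34a1, Slc12a1 and Aqp2 had at most 3 counts in any. The 9 intestine epithelium markers summed to 13.0 to 19.4 CPM in the chow libraries and to 11.5 to 65.0 CPM on HFD, and Cdx1 and Cdx2 were at 0 throughout. Nearly all of that sum was the fatty acid binding protein Fabp2, which liver also expresses and which rose with HFD in both genotypes (log2 1.80 ± 0.34 SE in WT and 1.56 ± 0.34 in HuMgat2 mice). The lowest intestine sum, 11.5 CPM, was that of WT HFD library 4, and the part of intestinal RNA was not tested.

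Of 8 hepatocyte markers, 1 fell with HFD in WT and 4 in HuMgat2 mice. Of 8 macrophage markers, 6 rose with HFD in WT and 2 in HuMgat2 mice. Of 7 stellate cell and fibroblast markers, 2 rose in WT and 6 in HuMgat2 mice, and of 7 endothelial markers 1 rose in each genotype. Among all genes 15.1% were called with diet in WT and 14.0% in HuMgat2 mice, and the endothelial counts were near these shares. Between genotypes on HFD, where 14.8% of all genes were called, 3 hepatocyte markers were lower in HuMgat2 mice. In the same comparison 3 stellate cell and fibroblast markers were higher. The endothelial sums overlapped between diets in WT mice (274.2 to 329.1 CPM on chow, 280.9 to 311.4 on HFD). They did not overlap in HuMgat2 mice (261.3 to 306.7 on chow, 314.9 to 327.9 on HFD). The 8 macrophage markers summed to 103.2 to 187 CPM in WT on chow and to 151.9 to 530.8 CPM in WT on HFD, with library 4 at the top. In HuMgat2 mice they summed to 124.1 to 157 CPM on chow and 172.3 to 202.4 CPM on HFD. The 7 stellate cell and fibroblast markers reached 293.5 to 410.5 CPM in WT on HFD and 452.4 to 521.1 CPM in HuMgat2 on HFD, against 200.9 to 325.6 CPM on chow. The adipocyte list was 0 to 0.416 CPM on chow, 0.159 to 129.9 CPM in WT on HFD and 3.05 to 6.97 CPM in HuMgat2 on HFD. Almost all of it was Cfd, which was lower in HuMgat2 than in WT mice on HFD (log2 -3.81 ± 0.78 SE, edgeR adjusted p = 0.00396). Adipoq, Plin1 and Lep had at most 2 counts in any library, and library 4 had the lowest sum of the HFD libraries. The part of these cell types in the Slc13 values was not tested.

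The nearest tested genes on either side of the members, 10 in all, were read in the same fit. With diet in WT mice 5 of 10 rose, against 15.1% of all genes called, and with diet in HuMgat2 mice 2 rose, against 14.0%. Slc13a2 lies between Unc119 and the folate transporter Slc46a1, 47.9 and 43.5 kb away. Unc119 rose with HFD in HuMgat2 mice (log2 1.47 ± 0.21 SE, edgeR adjusted p = 0.000188), where Slc13a2 was 10.6-fold lower, and was not called in WT mice (-0.32 ± 0.21 SE). Cadps2, 249 kb from Slc13a1, rose with HFD in WT mice (0.51 ± 0.09 SE) and was lower in HuMgat2 than in WT mice on HFD (-0.43 ± 0.09 SE). Between genotypes on HFD 3 of 10 neighbours were called, against 14.8% of all genes. Besides Cadps2 these were Unc119 (1.02 ± 0.20 SE) and Slc46a1 (0.31 ± 0.09 SE), both higher in HuMgat2 mice. The interaction test called 2 of 10, Unc119 (1.79 ± 0.29 SE) and Cadps2 (-0.67 ± 0.13 SE), against 4.87% of all genes. Neighbours of Slc13a5 were not called between genotypes on HFD (Med31 -0.76 ± 0.25 SE and Xaf1 -0.22 ± 0.25 SE).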

How the data were processed

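The deposited table holds raw counts of read pairs per gene, made by the authors with featureCounts 2.0.1 per the file headers, on GRCm39 with Ensembl 103 gene models. The header's command sets paired counting but no strand, multiple-match or multiple-overlap option. STAR 2.7 and DESeq2 1.26.0 are named in the submitters' processing notes. Per the labels' protocols, 15 mg of liver was used, RNA integrity had to exceed 7, and ribosomal RNA was depleted before stranded total RNA libraries were made. The 64 records are 4 per library, so 16 libraries were used once each. The gene lengths used per kilobase are the deposited exon lengths.

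All 4 groups were fitted together on the raw counts with edgeR 4.0.16 in R 4.3.3 (quasi-likelihood test, TMM, filterByExpr with minimum count 10, two-sided, Benjamini-Hochberg over 17318 tested genes, adjusted p below 0.05). The SE of a log2 difference is its size over the square root of F. Log2 CPM for correlations used a prior count of 2. For Slc13a1 and Slc13a2, whose diet values chose the family and which passed the filter through the groups where they were high, no p-value is given. The script was tested on simulated data. The alternatives comprised a DESeq2 1.42.0 fit, DESeq2 size factors used within edgeR, testing without the filter or above a mean of 1 CPM, a fit restricted to the compared groups, leaving out each library, and, added after the data were seen, Slc13a2os counts added to Slc13a2 and correlations without library 4.

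The members, gene lists and tests were chosen with earlier results of these data known. Genes named are the 5 members, up to 3 called genes per list and comparison with the smallest adjusted p, the 3 most similar genes (and the most negative for Slc13a1 and Slc13a2), and the nearest tested neighbours. Other called list genes were named after their values were seen.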

Additional observations from a re-analysis of the deposited data

Results flagged for a closer look

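In each group of 4 libraries, a value was singled out when its gap to the nearest library exceeded Dixon's critical share of the group's range. Chance does this in about 1 of 20 groups, and of the 20 sets of 4 checked (5 genes in 4 groups) 3 were singled out. Slc13a3 in WT HFD library 4 was 130.8 CPM, against 18.8 to 27.7 CPM in the other 3. Slc13a5 in the same library was 38.8 CPM, against 1.38 to 3.71 CPM. Slc13a1 in HuMgat2 HFD library 12 was 1.17 CPM (26 counts), against 0.203 to 0.310 CPM (5 to 7 counts).

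The diet effect of Slc13a5 differed between the genotypes by the edgeR interaction test (log2 -6.15, adjusted p = 0.0137, and -4.15 with adjusted p = 0.00117 without library 4). In CPM, all 4 WT HFD libraries were above all 4 WT chow libraries. All 4 HuMgat2 HFD libraries were below all 4 HuMgat2 chow libraries in CPM. The HuMgat2 raw counts were few and overlapped between diets (11 to 45 on chow and 5 to 14 on HFD).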

How the results depend on the processing

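Of 537 values of the members under the alternatives, 520 kept their direction and side of the threshold or, for diet differences, moved by less than the spread between libraries. The 537 include genotype and interaction values of Slc13a1 and Slc13a2, for which no test is given. For these 2 genes the count is no support, because they were chosen by their values in the same libraries. DESeq2 called 238 genes between genotypes on chow, against 88 by edgeR. Fitting only the groups compared gave 1452 genes for diet in WT mice, against 2617. With each library left out in turn, the calls ranged from 1673 to 2670 (diet in WT), 1627 to 3394 (diet in HuMgat2, 2418 with all libraries), 53 to 204 (genotype on chow), 1585 to 2711 (genotype on HFD, 2558) and 529 to 1129 (interaction, 844). The lowest of these came without WT chow library 5, or without HuMgat2 HFD library 10 for diet in HuMgat2 and genotype on HFD. The WT diet difference ranged from log2 5.04 to 6.14 for Slc13a1 (highest without WT chow library 7), 1.14 to 2.49 for Slc13a3 and 2.46 to 4.86 for Slc13a5, both lowest without WT HFD library 4. That of Slc13a1 in HuMgat2 mice ranged from 3.12 to 4.44. Differences near 0 changed sign when a library was left out. They were Slc13a2 between genotypes on chow (-0.24 to 0.21), Slc13a4 between genotypes on chow (-0.71 to 0.077) and on HFD (-0.13 to 0.29), and the Slc13a4 interaction (-0.049 to 0.74). Slc13a3 between genotypes on HFD ranged from -1.45, called without WT HFD library 3, to -0.10. The cause of these changes was not tested. No paired analysis was possible because no library number is shared between groups. Slc13a1, Slc13a4 and Slc13a5, at 0 to 1.71 CPM in the chow libraries, have few counts there, which limits their genotype differences on chow. The mean of at least 1 CPM removed Slc13a4, which then has no value.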
